A study of Mus musculus with 6 samples.

Results

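The genes of the proteasome, its activators, its inhibitor and its assembly chaperones were followed in livers of control (med23 f/f) and med23 Δli mice treated with CCl4. Members were the genes whose symbol starts with Psm, then a letter from a to g, then a number. They came to 50 of the 24346 genes listed, and 1 of them, *Psmc3ip*, a recombination factor named after its binding to a proteasome ATPase, is not a part of the proteasome. By role the others were 14 constitutive subunits of the 20S core, 3 immunoproteasome subunits, 2 tissue-specific 20S subunits, 17 subunits of the 19S cap, 5 activators, 1 inhibitor and 7 assembly chaperones.

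RNA of whole livers was sequenced from 3 control mice and 3 mice labelled med23 Δli, all C57/BL6 males aged 8 weeks that had been injected with 0.6 μl of CCl4 per gram of body weight 24 hours earlier. The deposited genotype labels read wt and med23 ko, which the design and methods of the study call med23 f/f and med23 Δli. By those methods both groups carry floxed *Med23*, and *Albumin*-cre removes the floxed part in hepatocytes of med23 Δli mice, so endothelial, immune and stellate cells keep the gene. Each library is 1 liver. All 6 livers had received CCl4, so values with and without the toxin cannot be compared here.

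The proteasome is the protease of the cytosol and nucleus that degrades proteins tagged with ubiquitin. Its 20S core is a stack of rings in which outer alpha rings guard the entrance and inner beta rings carry the proteolytic sites, and the 19S cap binds ubiquitin, removes it and unfolds the substrate with a ring of ATPases. Interferon gamma induces the immunoproteasome subunits *Psmb8*, *Psmb9* and *Psmb10*, which replace *Psmb5*, *Psmb6* and *Psmb7* in newly built cores and change the peptides offered to class I molecules. When proteasome activity falls short, the transcription factor NRF1, encoded by *Nfe2l1*, raises the core and cap genes together.

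FPKM, fragments scaled by transcript length and by the size of the library, allows levels to be set side by side between genes, and the level of each library below is in FPKM. Differences are log2 fold changes of log2(FPKM + 0.1), med23 Δli minus control, each with the standard error (SE) of limma and its adjusted p (Benjamini-Hochberg adjustment over the 11956 genes that averaged 0.5 FPKM or more), and a gene was called at an adjusted p under 0.05. *Med23*, on chromosome 10 of mm10 from 24869986 to 24913681, was not called (3.42, 2.97 and 4.14 FPKM in control livers, 3.40, 3.40 and 2.91 FPKM in livers labelled med23 Δli, adjusted p of 0.685 with limma). That value covers the whole gene in all cells of the liver, and whether this hides the deletion was not tested. Every direction below therefore rests on the labels. The 10 most abundant genes of a library held between 17.1% and 20.3% of all FPKM in control livers and between 11.9% and 13.7% in the others, and other scalings were tried because of this gap. The members together held between 0.641% and 0.727% of all FPKM in control livers and between 0.730% and 0.866% in livers labelled med23 Δli.

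Of the 50 members, 47 passed the filter and were tested. In the livers labelled med23 Δli, 2 members rose (*Psme4* and *Psmd8*) and 1 fell (*Psmd9*), none of them past 2-fold. Over all genes tested, 11.6% rose and 9.48% fell, and 4.45% rose and 3.45% fell past 2-fold, so the called share of the members, 6.38%, lay under the 21.1% called over all genes in either direction. At an unadjusted p under 0.05 in limma there were 12 members, against 37.6% of all genes. The groups did not overlap in 11 members that were higher (23.4%, against 23.3% of all genes) and in 4 that were lower (8.51%, against 20.4% of all genes), beside 43.7% of all genes in either direction. The median log2 fold change of the 47 members was 0.05, beside 0.02 over all genes tested. Its sign was not stable, since the median of the members was −0.06 after quantile normalization (all genes −0.02), −0.02 with libraries scaled without the 10 most abundant genes (all genes −0.04), −0.06 without control replicate 3 and −0.02 without med23 Δli replicate 1.

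**Figure D1:**
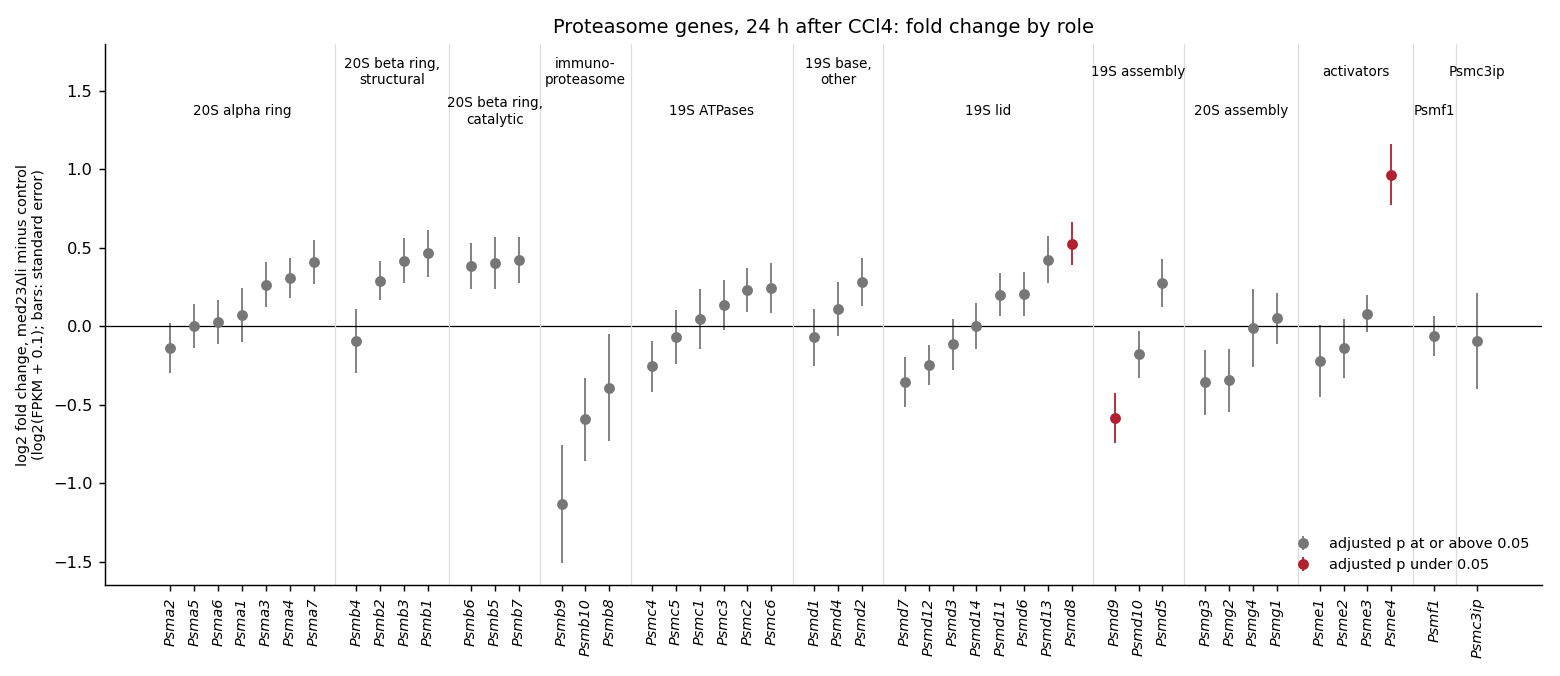
Log2 fold change (med23 Δli minus control) of each tested member, grouped by role, with bars for the standard error of limma. The members with an adjusted p under 0.05 are *Psme4*, *Psmd8* and *Psmd9*, and the immunoproteasome subunits lie below 0 while most of the constitutive beta subunits lie above it.

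Promoter sequences are given for the 3 called members and for *Psmb8* and *Psmb9*, the immunoproteasome subunits of the major histocompatibility region, so that the letters upstream of these genes can be read directly. They are from RefSeq (GRCm38.p6, the assembly of mm10), 5′ to 3′ on the strand of the gene, and each ends at the base before the RefSeq start site. The GENCODE spans given with the genes run over all annotated transcripts, so a RefSeq start can lie inside them, and for *Psmd9* (RefSeq start 123228190), *Psmb8* (34198195) and *Psmb9* (34187330) the printed stretch lies within the GENCODE span of the gene. Capitals mark matches to 4 motifs searched on both strands, the core of the antioxidant response element (TGACNNNGC), which NRF1 also binds, the interferon gamma activated site or GAS (TTCNNNGAA), an interferon regulatory factor motif (a pair of GAAA copies with NN between them) and the GC box (GGGCGG).
Psme4, chr11:30771525-30771774, plus strand: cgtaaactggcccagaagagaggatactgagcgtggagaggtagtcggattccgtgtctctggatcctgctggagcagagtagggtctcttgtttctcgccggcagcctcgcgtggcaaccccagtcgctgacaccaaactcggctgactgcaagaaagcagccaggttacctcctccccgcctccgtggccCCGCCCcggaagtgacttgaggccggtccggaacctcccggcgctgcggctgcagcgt
Psmd8, chr7:29180674-29180923, minus strand: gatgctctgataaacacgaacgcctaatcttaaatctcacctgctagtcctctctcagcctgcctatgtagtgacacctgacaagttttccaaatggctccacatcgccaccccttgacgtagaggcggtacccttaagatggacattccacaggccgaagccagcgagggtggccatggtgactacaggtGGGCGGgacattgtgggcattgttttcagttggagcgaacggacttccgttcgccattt
Psmd9, chr5:123227940-123228189, plus strand: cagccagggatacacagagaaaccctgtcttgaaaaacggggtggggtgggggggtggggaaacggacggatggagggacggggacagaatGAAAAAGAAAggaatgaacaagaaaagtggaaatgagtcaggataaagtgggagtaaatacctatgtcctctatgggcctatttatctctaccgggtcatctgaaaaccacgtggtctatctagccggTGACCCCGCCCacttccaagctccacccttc
Psmb8, chr17:34197945-34198194, plus strand: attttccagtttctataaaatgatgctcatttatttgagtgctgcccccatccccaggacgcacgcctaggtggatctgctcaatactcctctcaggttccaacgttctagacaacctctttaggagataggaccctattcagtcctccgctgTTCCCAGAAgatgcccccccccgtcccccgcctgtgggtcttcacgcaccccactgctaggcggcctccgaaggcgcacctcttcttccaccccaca
Psmb9 and Tap1, the stretch between both start sites, chr17:34187331-34187555, plus strand (the strand of *Tap1*): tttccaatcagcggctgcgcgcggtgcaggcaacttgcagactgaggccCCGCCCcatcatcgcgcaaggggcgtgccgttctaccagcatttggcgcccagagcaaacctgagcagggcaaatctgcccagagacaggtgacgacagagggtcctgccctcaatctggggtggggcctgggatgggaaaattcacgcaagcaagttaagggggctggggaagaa

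In *Psme4*, *Psmd8* and the stretch shared by *Psmb9* and *Tap1* the capitals are a GC box. In *Psmb8* they are a GAS, which lies from 97 to 89 bases before the start site. In *Psmd9* they are an interferon regulatory factor motif and, near the start, an antioxidant response element core whose last letters overlap a GC box. RefSeq promoters of 300 bases, from 250 before to 50 after the start, were matched for 42 of the 50 members and for 27025 genes in all. Only the 250 bases before the start were searched for motifs. The antioxidant response element core was found in 5 of the 42 member promoters (11.9%) and in 11.5% of all promoters, and the GC box in 22 (52.4%) against 35.4%. The GAS was found in 2 (4.76%, against 8.13%), the interferon regulatory factor motif in 3 (7.14%, against 3.46%) and CCAAT, searched but not marked, in 15 (35.7%, against 37.5%). A match describes letters in this window and is not a binding site.

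*Psme4* encodes PA200, a large nuclear activator that caps the 20S core and feeds it acetylated histones. It lies on the plus strand of chromosome 11 from 30771726 to 30880361. Control livers had 25.6, 15.7 and 21.6 FPKM and livers labelled med23 Δli had 39.8, 45.2 and 36.4 FPKM. Every liver labelled med23 Δli was above every control liver. The means were 20.96 ± 4.97 and 40.4 ± 4.44 FPKM (n = 3 each, SD), and the log2 fold change was 0.97 (SE 0.19, adjusted p of 0.0147 with limma). *Psme4* rose under all scalings and filters tried, and it was no longer called without med23 Δli replicate 1 (adjusted p of 0.0576) or without med23 Δli replicate 2 (0.0608), where fewer livers were compared.

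The other activators belong to the PA28 family. *Psme1* and *Psme2* encode the alpha and beta subunits of an interferon-inducible ring that opens the 20S core, and *Psme3* encodes a related nuclear ring. *Psme1* had 79.2, 99.3 and 53.7 FPKM in control livers and 73.2, 65.5 and 55.4 FPKM in livers labelled med23 Δli (log2 fold change of −0.22, SE 0.23, adjusted p of 0.507 with limma). *Psme2* had 85.9, 107 and 64.7 FPKM and 81.8, 73.7 and 73.7 FPKM (−0.14, SE 0.19, adjusted p of 0.617 with limma). In both, control replicate 2 was the highest and control replicate 3 the lowest of all 6 livers, and the groups overlapped. *Psme3* had 48.1, 44.5 and 44.9 FPKM and 51.2, 48.3 and 45.7 FPKM (0.08, SE 0.12, adjusted p of 0.656 with limma), a narrow range in which the groups also overlapped. *Psme2b*, a close copy of *Psme2*, stayed between 0.0515 and 0.246 FPKM and was not tested. *Psmf1*, which encodes the proteasome inhibitor PI31, lay between 8.35 and 9.87 FPKM (−0.06, adjusted p of 0.751 with limma).

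The immunoproteasome subunits were much lower in level than the constitutive subunits they replace. *Psmb9*, on the minus strand of chromosome 17 from 34181987 to 34187764, takes the place of *Psmb6*. It had 9.57, 18.8 and 6.40 FPKM in control livers and 6.20, 3.55 and 4.80 FPKM in livers labelled med23 Δli. All 3 livers labelled med23 Δli were below all 3 control livers, by a narrow gap from control replicate 3. The log2 fold change was −1.13 (SE 0.38, adjusted p of 0.0658 with limma), which missed the threshold, and without control replicate 3 it was −1.49 with an adjusted p of 0.0179. It was −0.72 without control replicate 2 (adjusted p of 0.115) and −0.93 without med23 Δli replicate 2 (0.188), so its size and its call depended on single livers.

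*Psmb10*, on the minus strand of chromosome 8 from 105935735 to 105938444, takes the place of *Psmb7*. It had 34.5, 40.4 and 19.6 FPKM in control livers and 21.6, 16.9 and 21.7 FPKM in livers labelled med23 Δli. Here control replicate 3 lay among the livers labelled med23 Δli, so the groups overlapped. The log2 fold change was −0.59 (SE 0.26, adjusted p of 0.141 with limma), and without control replicate 3 it was −0.90 (adjusted p of 0.010). It was −0.38 without control replicate 2 (adjusted p of 0.328) and −0.47 without med23 Δli replicate 2 (0.339). *Psmb8*, on the plus strand of chromosome 17 from 34197721 to 34201454, takes the place of *Psmb5*. It had 16.2, 30.6 and 11.2 FPKM and 16.3, 10.7 and 14.0 FPKM, a log2 fold change of −0.39 (SE 0.34, adjusted p of 0.431 with limma). Its groups overlapped, and the difference rested on control replicate 2, without which the log2 fold change was 0.00.

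The 3 constitutive catalytic subunits lay close to each other, with means over the 6 livers that differed by at most 1.15 times. *Psmb5*, the subunit with chymotrypsin-like activity and the target of bortezomib, had 197, 235 and 183 FPKM in control livers and 309, 230 and 278 FPKM in livers labelled med23 Δli (0.40, SE 0.16, adjusted p of 0.114 with limma). *Psmb6*, with caspase-like activity, had 189, 198 and 160 FPKM and 261, 239 and 213 FPKM (0.38, SE 0.15, adjusted p of 0.0955 with limma). *Psmb7*, with trypsin-like activity, had 200, 162 and 170 FPKM and 267, 230 and 215 FPKM (0.42, SE 0.15, adjusted p of 0.0760 with limma). The groups did not overlap in *Psmb6* and *Psmb7*, and in *Psmb5* med23 Δli replicate 2 lay below control replicate 2. None of the 3 passed the threshold. For *Psmb5*, 54.1% of the 50-base words of its transcripts also occur in transcripts of other genes, mostly the processed copy *Gm3375*, so its level can depend on how shared reads were assigned.

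**Figure D2:**
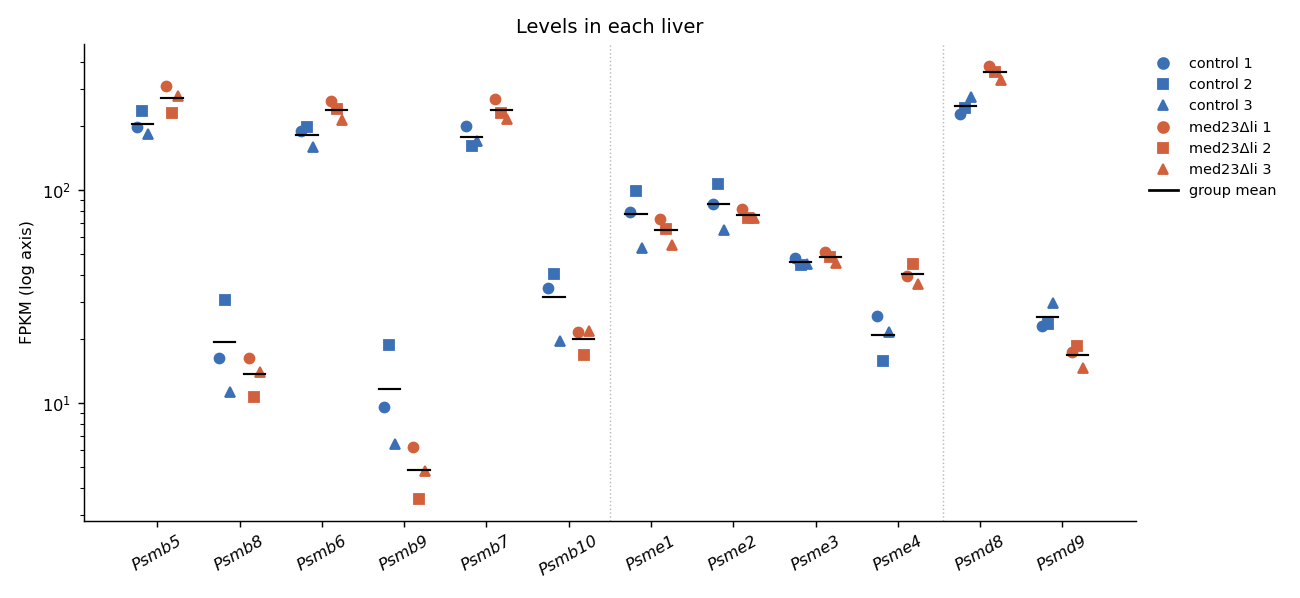
Level (FPKM, log axis) of the immunoproteasome subunits, the constitutive catalytic subunits, the activators, *Psmd8* and *Psmd9* in each liver, with points for livers and bars for group means. The groups are apart in *Psme4*, *Psmd8*, *Psmd9*, *Psmb6*, *Psmb7* and *Psmb9*, and *Psmb8*, *Psmb9* and *Psmb10* have their highest value in control replicate 2.

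A ratio of paired subunits within a liver does not change with the scaling of that liver. *Psmb9* was 5.07%, 9.50% and 3.99% of *Psmb6* in control livers and 2.37%, 1.48% and 2.25% in livers labelled med23 Δli. *Psmb10* was 17.3%, 25.0% and 11.5% of *Psmb7* and 8.08%, 7.35% and 10.1%. *Psmb8* was 8.24%, 12.98% and 6.13% of *Psmb5* and 5.29%, 4.66% and 5.05%. In each of the 3 pairs all livers labelled med23 Δli had a lower ratio than all control livers.

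As log2 ratios, *Psmb9* to *Psmb6* was −4.11 ± 0.65 in control livers and −5.65 ± 0.37 in livers labelled med23 Δli (n = 3 each, SD), a difference of −1.53. *Psmb10* to *Psmb7* was −2.55 ± 0.56 and −3.57 ± 0.24, a difference of −1.02. *Psmb8* to *Psmb5* was −3.53 ± 0.55 and −4.32 ± 0.09, a difference of −0.80. With each liver left out in turn the differences ranged from −1.80 to −1.17, from −1.30 to −0.74 and from −1.05 to −0.51 in the same order. Their sign could not change, since the groups did not overlap. The smallest difference of each pair was the one without control replicate 2. These ratios are given as a description, with no test, and the control livers spread more widely in each pair than the livers labelled med23 Δli. A lower ratio holds both a lower immunoproteasome level and a higher constitutive level, each with the values given above. In whole liver, fewer cells of a kind that make these subunits and less RNA per cell cannot be told apart.

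**Figure D3:**
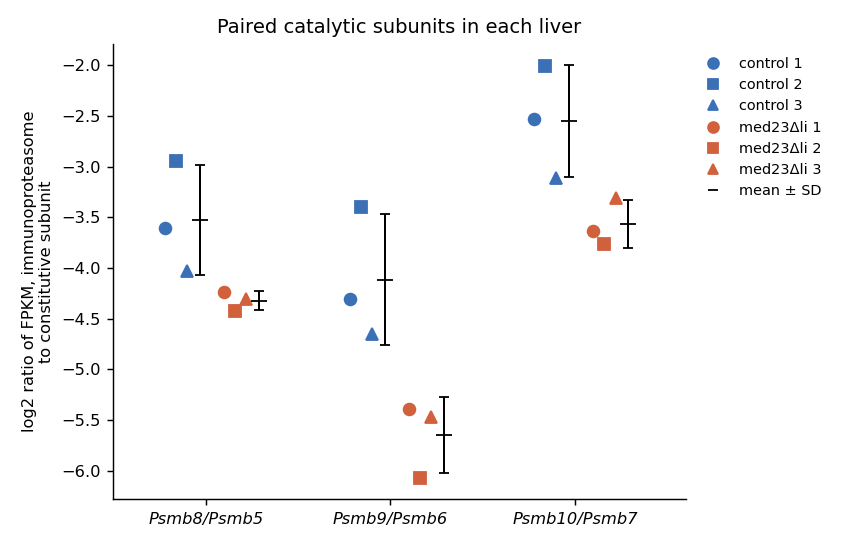
Log2 ratio of each immunoproteasome subunit to the constitutive subunit it replaces, with points for livers and bars for group means ± SD. In all 3 pairs the livers labelled med23 Δli lie below the control livers, with differences of the means of −0.80 for *Psmb8* to *Psmb5*, −1.53 for *Psmb9* to *Psmb6* and −1.02 for *Psmb10* to *Psmb7*.

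*Psmb9* and *Tap1*, a subunit of the transporter that carries peptides into the endoplasmic reticulum, start 226 bases apart and run in opposite directions, and 5.79% of the exonic bases of *Psmb9* overlap *Tap1*. *Tap1*, from 34187553 to 34197225 on the plus strand of chromosome 17, had 10.4, 18.2 and 8.65 FPKM in control livers and 6.94, 4.96 and 6.45 FPKM in livers labelled med23 Δli. It fell (log2 fold change of −0.95, SE 0.27, adjusted p of 0.0446 with limma), the order of the control livers was that of *Psmb9*, and the adjusted p rose to as much as 0.140 with a liver left out. *Tap2*, the other subunit of the transporter, had 18.4, 24.6 and 14.8 FPKM and 14.2, 11.6 and 11.6 FPKM (−0.60, adjusted p of 0.0666 with limma), and its groups did not overlap. Since the preparation did not keep strand, reads of the overlap cannot be assigned to *Psmb9* or to *Tap1*, and 14.7% of the exonic bases of *Psmb8* overlap *Gm20496* in the same way.

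Among 15 genes of class I antigen presentation, 2 rose and 1 fell (20% called, beside 21.1% of all genes), with a median log2 fold change of −0.09. Beside *Tap1*, these were *Canx*, which encodes the chaperone calnexin (0.68, adjusted p of 0.04997 with limma), and *Erap1*, a peptidase that trims peptides for class I molecules (0.50, adjusted p of 0.0364 with limma). Of 16 tested genes of interferon gamma signalling and its targets, none rose and 2 fell, with a median of −0.44. The called share was 12.5%, beside 21.1% of all genes. Of the 16, 12 were negative and 8 had an unadjusted p under 0.05 in limma (37.6% of all genes). Without overlap, 43.8% were lower and 6.25% higher, beside 20.4% and 23.3% of all genes. *Iigp1*, an interferon-inducible GTPase, fell by 1.19 on the log2 scale (adjusted p of 0.0200 with limma), and *Ifngr2*, a chain of the interferon gamma receptor, fell by 0.43 (adjusted p of 0.0445 with limma). *Ifng* itself was listed at 0 in 3 livers and reached at most 0.0805 FPKM.

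Markers of the other cells of the liver were read beside the immunoproteasome, since immune and endothelial cells also express it. All 8 endothelial markers fell, 4 of them past 2-fold, with a median log2 fold change of −0.92, and their summed level was between 92.5 and 132 FPKM in control livers and between 50.4 and 54.1 FPKM in the others. *Clec4g* (−1.27), *Stab2* (−1.05), *Lyve1* (−1.05) and *Kdr* (−1.03) had the largest differences. Of the 10 macrophage and Kupffer cell markers, 1 fell (*C1qa*, −0.68, adjusted p of 0.0425 with limma), 3 had an unadjusted p under 0.05 and 7 were negative, with a median of −0.28 and sums from 268 to 393 FPKM in control livers and from 295 to 303 FPKM in the others. The 12 T and NK cell markers summed to between 1.75 and 2.45 FPKM in control livers and to between 2.14 and 2.92 FPKM in the others, and 1 of them was tested and not called. *Cd2*, *Nkg7*, *Gzma*, *Gzmb*, *Ncr1* and *Klrd1* of that list were listed at 0 in at least 1 liver. The 5 B cell markers summed to at most 1.36 FPKM, with none tested. None of the 3 tested dendritic cell markers was called (1 at an unadjusted p under 0.05 in limma, median of 0.03), with sums from 2.90 to 4.58 FPKM in control livers and from 3.41 to 3.99 FPKM in the others. None of the 5 tested neutrophil markers was called (3 at an unadjusted p under 0.05 in limma, median of −0.60), with sums from 43.7 to 137 FPKM and from 41.4 to 101 FPKM. Of the 8 stellate cell markers 1 fell (*Des*, −0.56, adjusted p of 0.0497 with limma), 4 had an unadjusted p under 0.05 and 7 were negative, with a median of −0.41 and sums from 84.8 to 104 FPKM and from 66.1 to 86.7 FPKM. None of the 5 tested cholangiocyte markers was called or had an unadjusted p under 0.05 in limma (sums from 62.9 to 108 FPKM and from 61.2 to 99.3 FPKM). The 7 hepatocyte markers, which define the labelled tissue, were high in every liver, with sums from 22627 to 31941 FPKM in control livers and from 18894 to 25446 FPKM in the others, and none was called (4 at an unadjusted p under 0.05 in limma, median of −0.36). Over all genes tested, 9.48% fell, 3.45% fell past 2-fold and 37.6% had an unadjusted p under 0.05 in limma. The part of these cell types in the immunoproteasome values was not tested.

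The constitutive 20S core had no called member among 14 in limma, with 7 at an unadjusted p under 0.05. Of all genes, 21.1% were called and 37.6% had an unadjusted p under 0.05 in limma. The differences of the core were small and mostly positive, with 12 positive and a median log2 fold change of 0.30, which was 0.23 with libraries scaled without the 10 most abundant genes and 0.17 after quantile normalization. In 7 of the 14 genes the groups did not overlap and med23 Δli was higher, beside 23.3% of all genes, and in none was it lower. The summed level was 2290, 2229 and 1892 FPKM in control livers and 2754, 2424 and 2360 FPKM in livers labelled med23 Δli, so that every liver labelled med23 Δli was above every control liver. This sum and those of the rings below are in FPKM as deposited. They were not repeated under other scalings, so whether the groups stay apart there was not tested.

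The beta ring had the larger difference in summed level, from 1243 ± 142 FPKM in control livers to 1518 ± 149 FPKM in livers labelled med23 Δli (n = 3 each, SD), beside 894 ± 92.3 and 995 ± 64.1 FPKM for the alpha ring. Over its 7 constitutive subunits the median was 0.40 and 5 of the 7 were higher without overlap (71.4%). The 7 alpha subunits had a median of 0.07 with 2 of 7 higher without overlap (*Psma4* and *Psma7*, 28.6%). Of all genes, 23.3% were higher without overlap. The difference between the rings was not tested. *Psmb4*, a structural beta subunit and the most abundant member of the core, had 311, 393 and 234 FPKM in control livers and 325, 272 and 266 FPKM in livers labelled med23 Δli (−0.09, SE 0.20, adjusted p of 0.765 with limma). *Psmb2*, also structural and the least abundant, had 95.1, 83.8 and 91.9 FPKM and 119, 110 and 102 FPKM (0.29, SE 0.13, adjusted p of 0.135 with limma). *Psmb4* was the beta subunit that did not share the direction of the rest, while the groups of *Psmb2* did not overlap. *Psmb1* (log2 fold change of 0.46) and *Psmb3* (0.42), which complete the structural beta subunits, had no overlap either, with adjusted p-values of 0.0626 and 0.0739 in limma, and *Psmb1* was called without control replicate 1 (adjusted p of 0.0425). Core subunits are built into the particle in equal numbers, yet their mean RNA levels ranged from 100.4 FPKM (*Psmb2*) to 300.02 FPKM (*Psmb4*). Reads may be shared with processed copies for *Psma5* and *Psmb3* too, in which 49.1% and 17.8% of the 50-base words occur in transcripts of other genes.

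In the 19S cap 1 of 17 subunits was called (5.88%, beside 21.1% of all genes). *Psmd8*, a lid subunit whose joining completes the lid, lies on the minus strand of chromosome 7 from 29174188 to 29180701 and was the most abundant member of the cap. It had 227.7, 242.7 and 274.1 FPKM in control livers and 384.4, 359.2 and 327.6 FPKM in livers labelled med23 Δli. The groups were apart, with means of 248.1 ± 23.7 and 357 ± 28.5 FPKM (SD, n = 3 each) and a log2 fold change of 0.53 (SE 0.14, adjusted p of 0.0330 with limma). The call was lost after quantile normalization (adjusted p of 0.0817) and with libraries scaled without the 10 most abundant genes (0.0570). It was also lost with any liver but control replicate 3 left out (0.0616 to 0.132), and the log2 fold change stayed between 0.47 and 0.60 with each liver left out.

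The cap showed no common direction. Over its 17 subunits, *Psmd8* included, the median log2 fold change was 0.11, which was 0.04 with libraries scaled without the 10 most abundant genes and −0.02 after quantile normalization, and 11 of 17 differences were positive. With a liver left out the median lay between 0.01 (without control replicate 3) and 0.22 (without med23 Δli replicate 3). The 6 ATPases of the base, *Psmc1* to *Psmc6*, ranged from −0.25 to 0.25, with no call, and their means lay within 1.52 times of each other. The lid held both directions. Beside *Psmd8*, *Psmd13* was higher without overlap (0.42, adjusted p of 0.0808 with limma), while *Psmd7*, which pairs with the deubiquitinase *Psmd14*, and *Psmd12* were lower without overlap (−0.35 and −0.25, adjusted p-values of 0.146 and 0.189 in limma). *Psmd14* itself differed by 0.00 (SE 0.14). *Psmd1*, the large scaffold of the base and the least abundant member of the cap, had 62.9, 41.7 and 45.3 FPKM in control livers and 52.3, 46.9 and 41.7 FPKM in livers labelled med23 Δli (−0.07, SE 0.18, adjusted p of 0.803 with limma), and its groups overlapped.

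The 3 chaperones of 19S assembly differed among themselves. *Psmd9*, which holds ATPases during assembly of the base and is not part of the finished particle, lies on the plus strand of chromosome 5 from 123169413 to 123250131. It had 22.96, 23.5 and 29.7 FPKM in control livers and 17.4, 18.6 and 14.6 FPKM in livers labelled med23 Δli. All livers labelled med23 Δli were below all control livers, with means of 25.4 ± 3.72 and 16.9 ± 2.09 FPKM (SD, n = 3 each) and a log2 fold change of −0.58 (SE 0.16, adjusted p of 0.0366 with limma). The call was close to the threshold, since the adjusted p was 0.0503 to 0.117 with any of the 6 livers left out and 0.0545 with no filter on low values, and 25.5% of the exonic bases of *Psmd9* overlap *Gm26745*. The others, *Psmd10*, also known as the oncoprotein gankyrin, and *Psmd5*, had log2 fold changes of −0.18 and 0.27 and were not called. The 4 chaperones of 20S assembly, *Psmg1* to *Psmg4*, had levels between 15.4 and 51.8 FPKM in any liver and log2 fold changes from −0.36 to 0.05, with no call. Their summed level was lowest in control replicate 3 (87.0 FPKM) and highest in control replicate 2 (149 FPKM), so the spread among control livers covered that of the livers labelled med23 Δli.

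**Figure D4:**
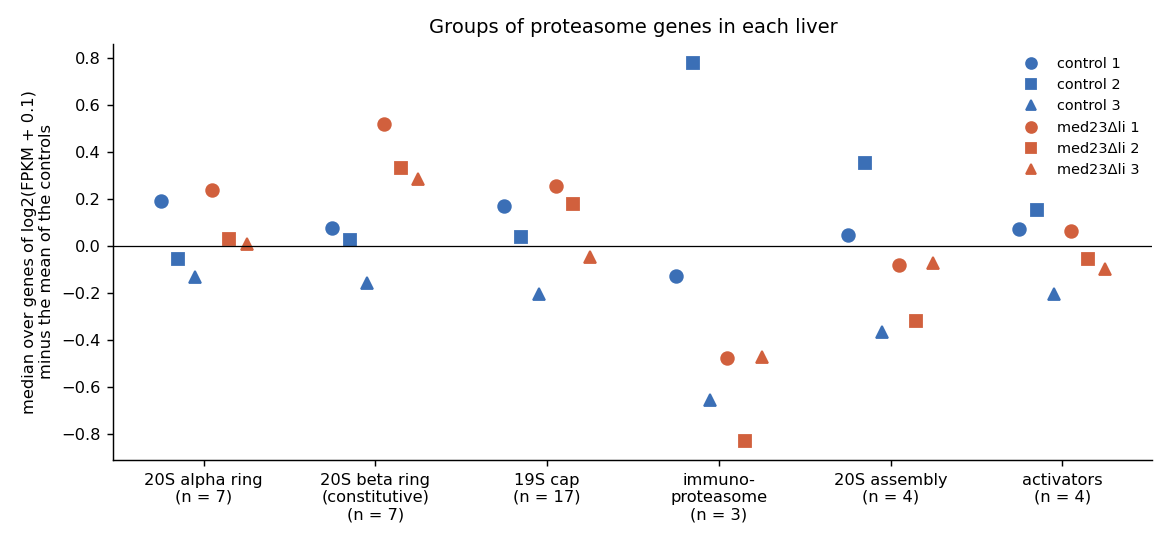
Median deviation of the tested members of each role group from the control mean (log2 scale) in each liver. Control replicate 3 lies lowest and med23 Δli replicate 1 highest in the alpha ring, the constitutive beta ring and the 19S cap, and for the immunoproteasome control replicate 2 lies highest.

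Single livers ran through these values. Control replicate 3 had the lowest level of all 6 livers in 20 of the 47 tested members, and med23 Δli replicate 1 had the highest in 17. Control replicate 2 was highest in 13 members, *Psmb8*, *Psmb9* and *Psmb10* among them. Without control replicate 3, 4 members were lower with an adjusted p under 0.05 in limma, namely *Psmb9*, *Psmb10*, *Psmd7* and *Psmg2*, a 20S chaperone, while *Psme4* and *Psmd8* were higher. Over all genes tested without that liver, 11.9% were lower and 14.6% higher at the same threshold.

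Subunits made in specialised tissues were near the floor in liver. *Psma8*, the alpha subunit of the testis, had 0.664, 0.550 and 0.561 FPKM in control livers and 0.398, 0.487 and 0.234 FPKM in livers labelled med23 Δli, and its mean of 0.482 FPKM was under the filter. *Psmb11*, the beta subunit of thymic epithelium, was listed at 0 in every liver. *Psmc3ip* lay between 0.697 and 1.47 FPKM and was not called.

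*Ubb*, which encodes a chain of ubiquitin units and is known to be induced by stress, differed more between the groups than any tested member. Of 11 genes that supply ubiquitin, activate it or conjugate it, 2 rose and none fell, 1 of them past 2-fold, with a median log2 fold change of 0.18. The called share of these 11 genes was 18.2%, beside 21.1% of all genes. *Ubb* had 1083, 642 and 1421 FPKM in control livers and 4303, 4403 and 3251 FPKM in livers labelled med23 Δli, a log2 fold change of 1.99 (SE 0.29, adjusted p of 0.00574 with limma). Every liver labelled med23 Δli was far above every control liver, and *Ubb* was called under every alternative run. *Ube2g1*, a conjugating enzyme, also rose (0.84, adjusted p of 0.0422 with limma).

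Of 8 genes of NRF1 and its processing, 2 rose and 1 fell (37.5% called, beside 21.1% of all genes), with a median of 0.23. *Nfe2l1* was not called (0.14, SE 0.14, adjusted p of 0.471 with limma). *Ddi2*, the protease that cuts NRF1 free, rose by 0.51 on the log2 scale (adjusted p of 0.0495 with limma), and *Mafg*, a partner of NRF1 on DNA, rose by 0.84 (adjusted p of 0.0403 with limma). *Syvn1*, a ubiquitin ligase of the endoplasmic reticulum that marks NRF1 for degradation, had 269, 319 and 250 FPKM in control livers and 95.3, 95.7 and 86.3 FPKM in livers labelled med23 Δli, and it fell by 1.59 (SE 0.14, adjusted p of 0.00130 with limma). The groups of *Syvn1* were far apart, and it stayed called with each liver left out.

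Of 10 proteasome parts and bound factors whose symbols lie outside the Psm prefix, 2 rose and none fell, with a median of 0.16. The called share was 20%, beside 21.1% of all genes. *Zfand5*, which binds the proteasome and stimulates it, rose by 0.97 (adjusted p of 0.0271 with limma), and *Akirin2*, which carries proteasomes into the nucleus, rose by 0.72 (adjusted p of 0.0476 with limma). Among 10 shuttle factors and components of the VCP segregase, which bring ubiquitinated proteins to the proteasome, 1 rose (*Faf1*, 0.85, adjusted p of 0.0108 with limma) and 1 fell (*Ubqln2*, −0.44, adjusted p of 0.0449 with limma), with a median of 0.19. Here too the called share was 20%, beside 21.1% of all genes.

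Several called genes of these lists that were higher in livers labelled med23 Δli lost their call under other scalings, with the same direction, whereas *Tap1*, *Ubqln2*, *Ifngr2*, *C1qa* and *Des*, which fell, stayed called under the 3 other scalings. These scalings shifted all genes downward, so the contrast is not particular to these genes. The median over all genes was 0.02 in the main run and −0.005 with each library centred on its median. It was −0.02 after quantile normalization and −0.04 with libraries scaled without the 10 most abundant genes. With libraries scaled without the 10 most abundant genes, *Zfand5* (adjusted p of 0.0503 with limma), *Akirin2* (0.0959), *Mafg* (0.0759), *Ddi2* (0.0596), *Ube2g1* (0.0715), *Canx* (0.0687) and *Erap1* (0.0660) were not called, and *Tap2* was (0.0373). After quantile normalization, *Akirin2* (0.0716), *Mafg* (0.0550), *Ddi2* (0.0528) and *Canx* (0.0769) were not called, and *Ddi2* was also lost with each library centred on its median (0.0526). Many of these calls were also lost with 1 liver left out.

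**Figure D5:**
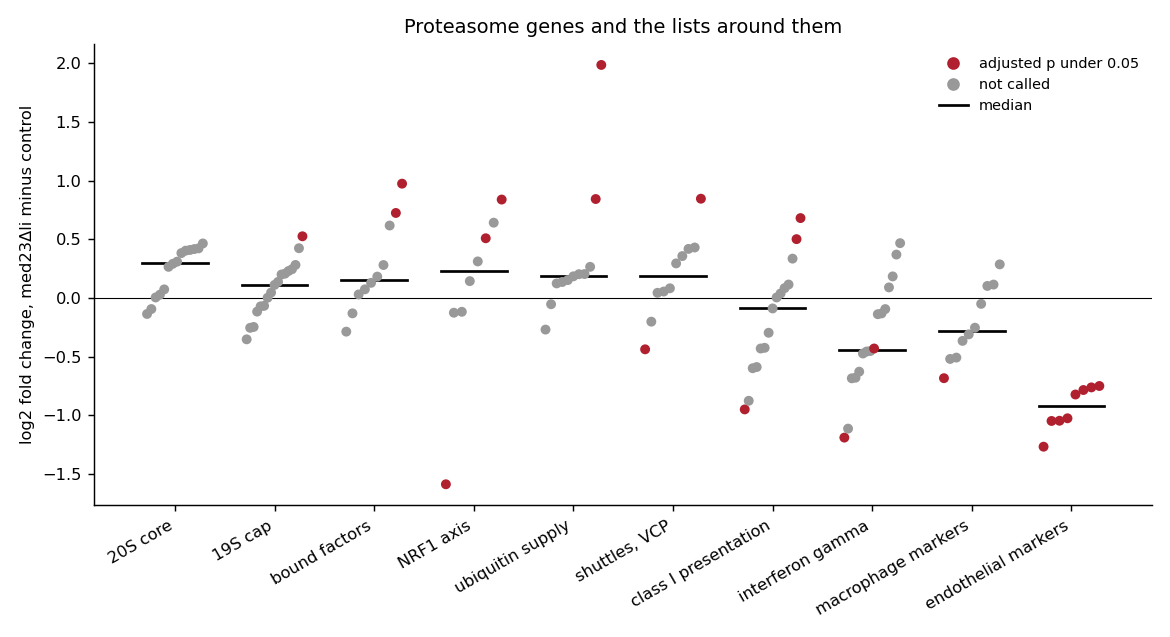
Log2 fold change (med23 Δli minus control) of the tested genes of the 20S core, the 19S cap, the pathway lists and the macrophage and endothelial markers, with lines for medians and red points for an adjusted p under 0.05 in limma. *Ubb* lies at 1.99, *Syvn1* at −1.59, and all 8 endothelial markers lie below 0.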

How the data were processed

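RNA of whole livers was measured in 3 control and 3 med23 Δli libraries, grouped by their labels. The authors prepared libraries with a TruSeq v2 kit, which does not keep strand, sequenced paired ends, aligned them to UCSC mm10 by TopHat and deposited FPKM per gene and library from Cuffdiff. The tool versions, the annotation and the Cuffdiff options are not given in the sources used here. The columns of the authors' own comparison (group FPKM, fold change, p-values, q-values and calls) were not used, and every library column was mapped. Low FPKM values shared no step of whole reads between libraries, so the depth of each library is unknown and only the spread between livers is used as error.

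Genes averaging 0.5 FPKM or more were compared on log2(FPKM + 0.1) with limma 3.58.1 in R 4.3.3 (lmFit and trended eBayes), p-values were adjusted over 11956 genes by the Benjamini-Hochberg method, and calls were made at 0.05. A fold change on this scale understates that of low genes. The test was first run on simulated data with known changes. It called 1 of 66 changes of 0.5 on the log2 scale, 21 of 67 of 1 and 53 of 67 of 2. It also called 5 unchanged genes. A member that was not called can therefore still differ by a small amount. Fewer genes were changed there than were called in the livers, so the share found in the livers can differ. Values of each liver are given for called members, *Psmb5* to *Psmb10*, *Psme1* to *Psme4* and the most and least abundant member of core and cap. Of the other lists, up to 4 called genes with the largest differences are named, plus *Tap1* and *Tap2*. All other members named singly, *Nfe2l1*, *Ifng* and 6 T and NK cell markers listed at 0 were named after their values were seen. Members and lists were chosen with earlier results of these data known. Some genes of the lists are not reported here. Alternatives were other pseudocounts, filters, scalings and eBayes settings, the replicate number as a block, and leaving out each liver. Positions and exon overlaps are from GENCODE M21, and promoters from RefSeq (GRCm38.p6). Python 3.11.15, numpy 2.4.6, pandas 2.3.3 and matplotlib 3.10.9 were used for the rest.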

Additional observations from a re-analysis of the deposited data

How the results depend on the processing

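With 3 livers a group and no read counts, small differences are measured poorly, and an exact permutation test of 1 gene cannot give a p below 0.1. The number of members that rose, 2, was 1 after quantile normalization, with libraries scaled without the 10 most abundant genes and with the replicate block, and 0 to 2 with a liver left out. The number that fell, 1, was 0 with no filter, with eBayes without a trend and with the replicate block, 2 after quantile normalization (*Psmd7* and *Psmd9*), and 0 to 4 with a liver left out (4 without control replicate 3). Past 2-fold, 0 to 1 member rose and 0 to 1 fell with a liver left out. Over all genes tested, the split of 1384 higher and 1133 lower became 979 and 1390 when scaled without the 10 most abundant genes, 1301 and 1351 after quantile normalization, and 809 and 614 with the replicate block. The median log2 fold changes of the role groups moved by less than the SD between livers under all alternatives run, though some changed sign. The cap went from 0.11 to −0.02 after quantile normalization, and the activators from −0.03 to 0.05 without control replicate 2. The differences of the ratios also moved by less than that SD. They were run only with a pseudocount of 0.1 and with each liver left out. With a liver left out, 13 of the 47 tested members took both signs. Of the genes with values given for every liver, *Med23* ranged from −0.22 to 0.017 (without control replicate 3), *Psme2* from −0.33 to 0.033 and *Psmb4* from −0.29 to 0.086 (both without control replicate 2), and *Psmd1* from −0.19 to 0.11 (without control replicate 1). With no filter, the calls of *Zfand5*, *Akirin2*, *Mafg*, *Ddi2*, *Ube2g1*, *Ubqln2*, *Tap1*, *Canx*, *Erap1*, *C1qa*, *Lyve1* and *Des* were lost (adjusted p of 0.0508 to 0.0884), and with eBayes without a trend those of *Akirin2*, *Mafg*, *Ddi2*, *Ube2g1*, *Ubqln2*, *Tap1*, *Canx*, *Ifngr2*, *C1qa* and *Des* (0.0532 to 0.0666). Robust eBayes ended the call of *Des* (0.0517). Over the named list genes that were called near the threshold, the highest adjusted p (limma) with a liver left out was 0.0917 for *Zfand5*, 0.138 for *Akirin2*, 0.177 for *Ddi2*, 0.120 for *Mafg*, 0.133 for *Ube2g1*, 0.148 for *Canx*, 0.146 for *Erap1*, 0.154 for *Ifngr2*, 0.151 for *Ubqln2*, 0.139 for *C1qa*, 0.145 for *Des*, 0.0732 for *Iigp1*, 0.0915 for *Lyve1* and 0.0507 for *Faf1*.

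The replicate numbers did not pair the livers, since the deviations of livers with the same number correlated at −0.02, −0.05 and −0.12. With the replicate number as a block, *Psme4* stayed called (adjusted p of 0.0361 with limma), and *Psmd8* (0.0710) and *Psmd9* (0.0908) did not. Of the named list genes, *Akirin2* (0.0662), *Mafg* (0.0615), *Ddi2* (0.0997), *Ube2g1* (0.0809), *Ubqln2* (0.118), *Tap1* (0.0841), *Canx* (0.0639), *Erap1* (0.0836), *Ifngr2* (0.112), *C1qa* (0.0510) and *Des* (0.0908) were no longer called.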
